A study of Mus musculus with 45 samples.

Results

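Organoids were grown from R1, an embryonic stem cell line of the mouse, and compared between 18 h and 42 h of all-trans retinoic acid (RA), across all genes. The comparison used 6 of the 45 RNA sequencing libraries of the series, 3 from RA 18 h and 3 from RA 42 h, chosen by their treatment and time point, and all 6 belong to the same library series. The same interval in untreated organoids, with 6 further libraries of that library series, was set beside the gene lists and many of the genes.

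In the study, wild-type R1 cells were embedded in Matrigel, a basement membrane gel, and grew clonally in N2B27, a serum-free neural differentiation medium. At day 2 the medium was replaced by N2B27 with or without RA, and organoids were collected at day 2 and at 7 later times up to 78 h. Each condition had 3 libraries that the labels call biological replicates, and equal replicate numbers are not stated to have been grown together. RA was given at 250 nM, although the treatment protocol in the labels has µM. By the labels and methods, the RA 18 h and RA 42 h groups shared the cell line, the gel, the medium and the RA. They differed in the time since day 2 and in the level of Y chromosome genes, given below. They are from 1 cell line, and RNA was taken from whole organoids, so fewer cells of a type and less RNA per cell cannot be told apart.

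RA is a small lipophilic signal made from vitamin A. It enters the nucleus on CRABP proteins, binds heterodimers of RAR and RXR receptors on DNA, and activates genes such as those of the Hox clusters and the Cyp26 enzymes that degrade it. In the embryo it gives the hindbrain and spinal cord their posterior identity and, together with Sonic hedgehog and BMP signals, sets the kinds of progenitors that form along the axis.

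Total counts were 21656865 to 23361191 per library at RA 18 h and 20703819 to 25261063 at RA 42 h, so that 3 counts, taken as the limit of detection, stood for 0.115 to 0.140 CPM. CPM, the unit of all levels, are counts scaled to a common library size by TMM. The untreated libraries held 23250799 to 39688686 counts at 18 h and 24970955 to 27479990 at 42 h. Values with ± are the mean and SD of 3 libraries, SE is the standard error of the log2 fold change beside it, and adjusted p-values come from edgeR's quasi-likelihood test over all genes. A gene was called when its adjusted p was under 0.01 and its log2 fold change was past 1 in either direction, and "rose" and "fell" are used of called genes. A bare number in brackets after a pair of levels is the log2 fold change from 18 h to 42 h. Gene positions are on GRCm38.

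From RA 18 h to RA 42 h the organoids lost transcripts of many pluripotency genes and of Cyp26a1, Cyp26b1, Hoxb1 and Cdx1. They gained transcripts of neural progenitors, of the dorsal neural tube and of the nuclear receptor genes Nr2f1 and Nr2f2. At 18 h Cyp26a1, Cyp26b1, Hoxb1 and Cdx1 stood higher with RA than without it. Other genes of the RA pathway and of the Hox clusters rose, fell or were not called. Of 16629 genes tested, 1009 rose and 1342 fell, which is 6.07% and 8.07%. These shares belong beside the RA counts of every gene list below. Among the genes that rose, 312 passed a log2 fold change of 2 and 96 passed 3, against 367 and 66 of those that fell. In untreated organoids 803 of 16318 genes rose and 646 fell over the same interval, 4.92% and 3.96% (8.88% in all). The 6 RA libraries did not overlap between times for 62.1% of all genes tested, and for all 1009 that rose and all 1342 that fell. A gap between the groups is therefore common, is shared by every called gene, and is not by itself a result about a gene.

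The intervals had much in common. Across the 15818 genes tested in both, the log2 fold changes with and without RA had a Pearson correlation of 0.63 and a Spearman correlation of 0.59, a description over genes that are not independent of each other. Of the genes that rose with RA, 364 also rose without it, 36.1% of the RA rises and 45.3% of the untreated rises. Of those that fell, 405 also fell without RA, 30.2% and 62.7%. Opposite calls were rare, with 14 genes that fell with RA and rose without it, and 2 genes the other way round. The change with RA was tested against the change without it in 1 model over the 12 libraries, and 268 of 17496 genes had a higher change with RA (1.53%) and 629 a lower one (3.6%).

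**Figure D1:**
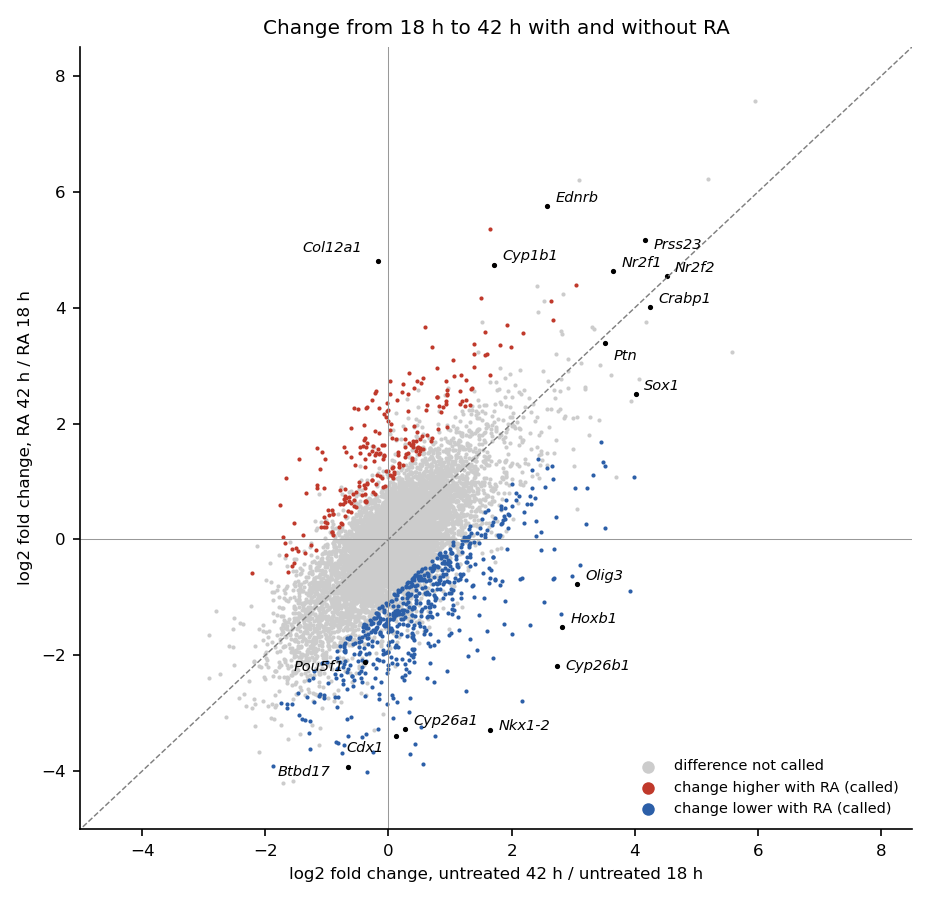
Log2 fold change from 18 h to 42 h of every gene tested in both intervals, in untreated organoids (x axis) and in RA-treated organoids (y axis). Red and blue points are genes whose change with RA was called higher or lower than the change without it, black points are named genes, and the dashed line marks equal change; Crabp1 and Nr2f2 lie close to it, while Cyp26a1, Cdx1 and Nkx1-2 lie far below.

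The largest rises named here are those of genes with a mean of at least 5 CPM. Genes low at 18 h pass that limit through their level at 42 h. Dbx1 was among these rises. This gene, which marks progenitors in the middle of the neural tube's dorsoventral axis, had no more than 2 counts in a library of RA 18 h and stood at 21.3, 18.1 and 16.1 CPM at RA 42 h. The fitted log2 fold change was 8.22 (SE 0.26, adjusted p = 8.0e-10), which rests on so few counts at 18 h that its size is loosely set. It went from close to nothing to a clear level in all 3 libraries. Without RA its mean was 0.0226 CPM at 18 h and 0.252 CPM at 42 h.

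Ednrb (chr14:103814625-103844402, minus strand), the endothelin receptor B gene, was at 2.47, 1.86 and 1.70 CPM at RA 18 h and at 124, 107 and 94.7 CPM at RA 42 h (log2 fold change 5.75, SE 0.14, adjusted p = 1.1e-10). The nuclear receptor genes Nr2f1 and Nr2f2 (COUP-TFI and COUP-TFII) rose together. Nr2f1 was at 2.82, 1.98 and 1.83 CPM at RA 18 h and at 59.3, 55.6 and 50.3 CPM at RA 42 h (log2 fold change 4.64, SE 0.13, adjusted p = 3.3e-10), and Nr2f2 was at 1.30, 1.15 and 0.957 CPM at RA 18 h and at 29.3, 26.1 and 24.4 CPM at RA 42 h (log2 fold change 4.54, SE 0.13, adjusted p = 6.0e-10). In each of these 3 genes the lowest library of 42 h lay many times above the highest of 18 h. A lack of overlap was a condition for naming these rises, so the gap is not separate evidence. All 3 also rose without RA, Ednrb from 0.379 ± 0.150 to 2.18 ± 0.410 CPM (2.58), Nr2f1 from 0.175 ± 0.0793 to 2.23 ± 0.356 CPM (3.65) and Nr2f2 from 0.228 ± 0.0642 to 5.38 ± 0.945 CPM (4.51), and the difference between the intervals was called for Ednrb but not for Nr2f1 or Nr2f2. Zbtb16 (PLZF), a zinc finger repressor of the hindbrain and limb, went from 3.72 ± 0.367 to 78.2 ± 7.49 CPM (log2 fold change 4.39), the secreted protease Prss23 from 1.11 ± 0.114 to 39.97 ± 1.53 CPM (5.16), and Cyp1b1, a cytochrome P450 that can oxidize retinol, from 4.09 ± 0.895 to 109 ± 8.65 CPM (4.74). The collagen gene Col12a1 went from 1.08 ± 0.255 to 30.5 ± 4.23 CPM (4.81). Hoxd3 was also among the 10 largest rises and is described with the Hox genes.

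The 10 largest falls named here are those of genes with a mean of at least 5 CPM over the 6 libraries, a limit that genes with a deep fall pass through their level at 18 h. Cdx1, a caudal-type factor of posterior tissue and an RA target, was at 33.6, 35.6 and 41.0 CPM at RA 18 h and at 3.78, 3.40 and 3.34 CPM at RA 42 h (log2 fold change -3.39, SE 0.10, adjusted p = 6.0e-10). Nkx1-2, a marker of the caudal epiblast next to the primitive streak, was at 26.8, 25.4 and 29.7 CPM at RA 18 h and at 2.42, 4.05 and 1.85 CPM at RA 42 h (log2 fold change -3.28, SE 0.19, adjusted p = 5.8e-08). In untreated organoids Nkx1-2 was at 31.0, 28.8 and 29.4 CPM at untreated 18 h and at 84.8, 101 and 86.8 CPM at untreated 42 h (log2 fold change 1.65, SE 0.07, adjusted p = 1.1e-07). It moved in opposite directions in the presence and absence of RA. Btbd17 had the largest fall above that limit, from 79.5 ± 3.85 to 5.19 ± 0.105 CPM (log2 fold change -3.93, SE 0.07, adjusted p = 2.6e-11). The other falls of this set were of Wt1, a zinc finger factor of the kidney and mesothelium, from 28.5 ± 2.02 to 3.31 ± 0.727 CPM (-3.11), of Il33, a nuclear cytokine, from 23.9 ± 1.83 to 2.53 ± 0.115 CPM (-3.24), of Srms, a Src-related kinase, from 23.7 ± 2.32 to 2.78 ± 0.724 CPM (-3.10), of Col6a5 from 33.0 ± 1.64 to 2.79 ± 0.604 CPM (-3.54), of the casein gene Csn3 from 41.1 ± 4.14 to 3.59 ± 0.820 CPM (-3.50), of the chemokine scavenger Ackr4 from 14.1 ± 0.577 to 1.31 ± 0.210 CPM (-3.40), and of Cyp26a1, described next. Ackr4 lies opposite Acad11, a gene of 36.3 CPM on average, and the strand setting of the counting is not given in the sources used here, so that its reads may be shared. Nr2f1, Nr2f2, Prss23, Hoxd3 and Nkx1-2 also overlap genes on the opposite strand, the most abundant of which had a mean of 1.94 CPM.

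In the RA pathway the degrading enzymes Cyp26a1 and Cyp26b1 fell, and the carriers Crabp1, Crabp2 and Fabp5 rose. Of 25 members tested, 6 rose and 5 fell, against 7 and 1 without RA, and their median log2 fold change was -0.06 beside -0.01 over all genes tested. Cyp26a1 (chr19:37697798-37701536, plus strand), the main RA-degrading hydroxylase of the early embryo, was at 257, 288 and 284 CPM at RA 18 h and at 27.5, 29.6 and 28.5 CPM at RA 42 h (log2 fold change -3.27, SE 0.06, adjusted p = 2.6e-11). All 3 libraries of 42 h lay far below those of 18 h and still above the untreated libraries of 42 h, which stood at 3.38, 3.50 and 2.96 CPM. Cyp26b1, the related hydroxylase of the hindbrain and limb, was at 16.6, 19.2 and 16.8 CPM at RA 18 h and at 3.78, 3.32 and 4.40 CPM at RA 42 h (log2 fold change -2.19, SE 0.12, adjusted p = 5.0e-08). In untreated organoids Cyp26b1 rose, from 0.336 ± 0.114 to 2.32 ± 0.620 CPM (log2 fold change 2.74).

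Receptors and carriers moved in both directions. Rarb, a receptor gene that RA itself activates, was not called, at 42.8, 44.2 and 46.4 CPM at RA 18 h and 59.5, 58.0 and 53.2 CPM at RA 42 h (log2 fold change 0.36, SE 0.06, adjusted p = 3.5e-04). It overlaps Top2b, of 259 CPM on average, on the opposite strand. Rarg, the receptor gene most used in the early embryo, fell from 146 ± 13.3 to 45.4 ± 5.59 CPM (-1.68), Rxrg, an RXR partner, fell from 4.003 ± 1.11 to 1.07 ± 0.108 CPM (-1.89), and Rxra rose from 29.2 ± 1.23 to 85.6 ± 3.93 CPM (1.55). Crabp1, a carrier of RA in the cytoplasm, was at 15.4, 15.7 and 17.5 CPM at RA 18 h and at 266, 231 and 284 CPM at RA 42 h (log2 fold change 4.01, SE 0.09, adjusted p = 6.7e-11). It rose in untreated organoids too, from 11.3 ± 1.17 to 209 ± 31.5 CPM, and the difference between the intervals was not called (difference -0.21, SE 0.15, adjusted p = 0.35). Crabp2, which hands RA to the receptors, rose from 294 ± 15.3 to 654 ± 45.6 CPM (1.16), and Fabp5, an alternative carrier, rose from 16.5 ± 1.13 to 34.8 ± 0.223 CPM (1.08). Aldh1a1, an enzyme that makes RA from retinal, rose from 0.130, 0.0825 and 0.0435 CPM at RA 18 h, no more than 3 counts in a library, to 2.98, 2.25 and 2.595 CPM at RA 42 h. Aldh1a2, the main RA-making enzyme of the embryonic trunk, had 4.71 and 2.76 CPM and was not called. Dhrs3, which returns retinal to retinol, was not called either, at 44.5 and 27.9 CPM.

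Cyp26a1 and Rarb both hold a known type of RA receptor site just before their start, and they parted over the interval, which is why their promoters are shown. The 250 bases before the start are from RefSeq (GRCm38.p6), in the gene's own direction. Capitals mark a direct repeat of half-sites, each being AGGTCA or its variant AGTTCA or its variant GGGTCA or its variant GGTTCA, 5 bases apart, searched on both strands. The Cyp26a1 window is chr19:37697558-37697807, plus strand, and the Rarb window is chr14:16575477-16575726, minus strand.
Cyp26a1: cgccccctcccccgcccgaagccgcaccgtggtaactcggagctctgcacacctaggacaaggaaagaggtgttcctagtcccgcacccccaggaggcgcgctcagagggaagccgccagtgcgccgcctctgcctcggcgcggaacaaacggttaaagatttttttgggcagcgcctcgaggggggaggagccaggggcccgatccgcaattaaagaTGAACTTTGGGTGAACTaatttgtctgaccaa
Rarb: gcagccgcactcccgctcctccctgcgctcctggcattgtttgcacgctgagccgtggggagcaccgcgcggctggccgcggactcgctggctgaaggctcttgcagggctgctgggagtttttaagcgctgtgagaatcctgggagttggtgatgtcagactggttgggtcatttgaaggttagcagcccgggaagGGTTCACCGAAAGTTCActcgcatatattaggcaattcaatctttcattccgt
Counted from the start, the repeat lies from -32 to -16 in Cyp26a1, where it reads on the opposite strand, and from -53 to -37 in Rarb. Such a repeat was found in 29 of 32851 windows of this length (0.0883%) and in 7 of the 11812 genes tested that had one (0.0593%), among them 0 of 691 genes that rose and 2 of 889 that fell. The windows of Cyp26b1, Dhrs3 and Hoxb1 held no match. The motif was chosen after the changes were known.

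**Figure D2:**
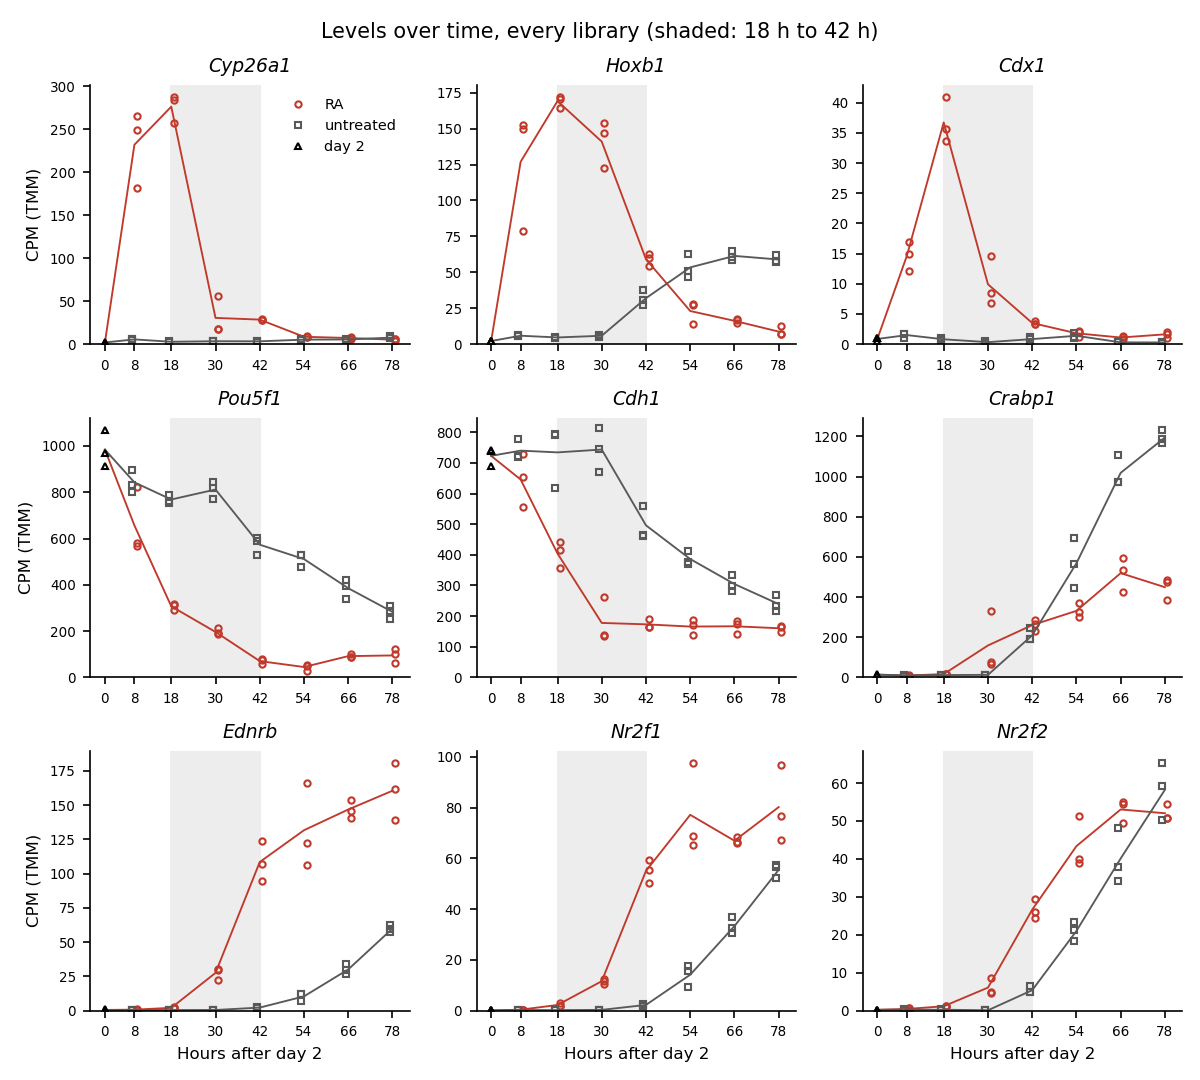
Level of 9 genes (y axes, CPM after TMM normalization) against hours after day 2 (x axes), with every library as a point, means as lines, RA in red and untreated in grey. Over the shaded interval Cyp26a1, Hoxb1, Cdx1, Pou5f1 and Cdh1 declined with RA, while Crabp1, Ednrb, Nr2f1 and Nr2f2 climbed.

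The Hox genes, which encode position along the body axis, moved in both directions with RA. Of 14 members of paralogue groups 1 to 5 tested, 6 rose and 1 fell with RA, with a median log2 fold change of 0.04. In untreated organoids 8 rose and 0 fell, with a median of 2.14. Hoxb1 (chr11:96365752-96368256, plus strand), the gene of rhombomere 4 of the hindbrain, was the member that fell. It was at 165, 172 and 171 CPM at RA 18 h and at 54.4, 60.2 and 62.6 CPM at RA 42 h (log2 fold change -1.51, SE 0.06, adjusted p = 4.6e-09). Without RA it was at 4.56, 4.62 and 4.77 CPM at untreated 18 h and at 27.3, 38.0 and 30.7 CPM at untreated 42 h (log2 fold change 2.81, SE 0.13, adjusted p = 1.2e-07), so that the groups with and without RA drew closer from opposite sides. Hoxb2 went from 121 ± 4.75 to 78.5 ± 6.201 CPM and was not called.

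The 6 rises were of Hoxd1, Hoxa2, Hoxb3, Hoxd3, Hoxc4 and Hoxc5. Hoxd3 was at 0.825, 0.495 and 0.609 CPM at RA 18 h and at 15.9, 15.9 and 14 CPM at RA 42 h (log2 fold change 4.56, SE 0.17, adjusted p = 2.8e-09), and Hoxc5 was at 3.26, 3.96 and 3.09 CPM at RA 18 h and at 19.8, 21.2 and 17.7 CPM at RA 42 h (log2 fold change 2.51, SE 0.12, adjusted p = 1.6e-08). The untreated libraries of 42 h had 0.0786, 0.152 and 0.325 CPM of Hoxd3 and 0.275, 0.114 and 0.325 CPM of Hoxc5, far below the RA libraries of the same time. Hoxc4 rose from 5.94 ± 1.11 to 20.2 ± 1.49 CPM (1.77), Hoxb3 from 21.3 ± 0.693 to 51.6 ± 2.94 CPM (1.27), Hoxa2 from 5.25 ± 0.670 to 12.6 ± 1.05 CPM (1.26) and Hoxd1 from 1.66 ± 0.277 to 3.36 ± 0.236 CPM (1.02). Hoxb2 and Hoxb3 lie opposite Hoxb3os, a transcript with a mean of 19.3 CPM.

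Among the more posterior paralogue groups 6 to 13, 4 of 14 members tested rose and 3 fell, and without RA 4 of 10 rose and 0 fell. The genes that rose were Hoxc6, Hoxc8, Hoxc9 and Hoxd8, each with a mean between 0.525 and 1.52 CPM at RA 42 h. The genes that fell were Hoxa7, Hoxa9 and Hoxa10, by 1.03, 1.30 and 1.41 on the log2 scale. Without RA 18 h replicate 3 or without RA 42 h replicate 1 edgeR called 0 falls in this list, and DESeq2 on all 6 libraries called 1. With the filter raised to 10 counts in each library 0 of the rises were called, and the call of Hoxc9 was lost in DESeq2 (adjusted p of 0.0403), with a replicate block, in the fits of 12 and 45 libraries, against a log2 fold change of 1, and without any 1 of 5 libraries, all but RA 42 h replicate 3. Hoxb8 and Hoxb6, at higher levels, went from 45.8 ± 1.06 to 56.3 ± 3.31 CPM and from 24.5 ± 1.40 to 15.1 ± 1.44 CPM, neither called.

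**Figure D3:**
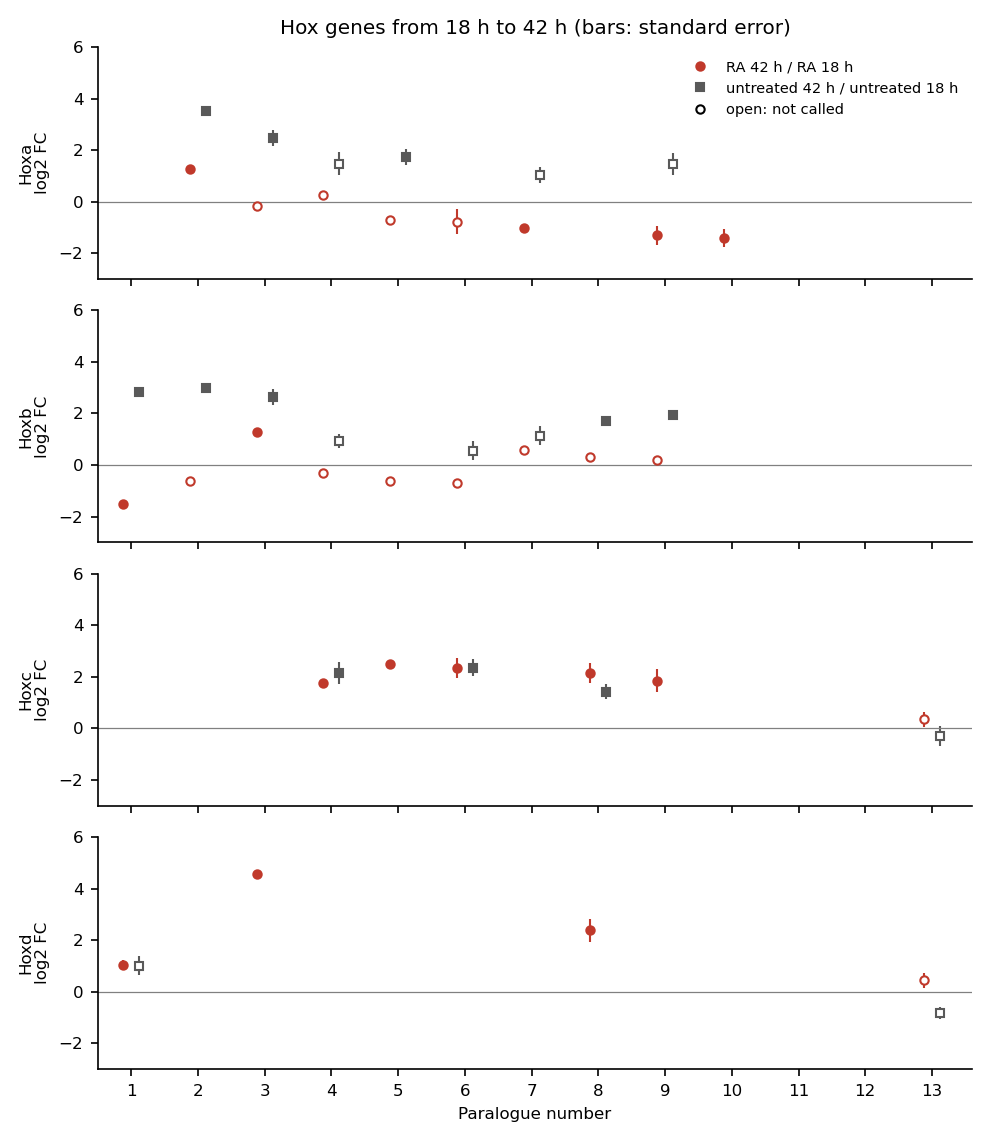
Log2 fold change from 18 h to 42 h (y axes) of Hox genes tested, by cluster (panels) and paralogue number (x axis), with RA in red and without RA in grey. Bars are standard errors and open symbols were not called; in the Hoxa and Hoxb clusters the untreated values lie above the RA values, and in the Hoxc cluster genes of both rise.

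Regulators of hindbrain segments and Hox cofactors rose in 10 of 24 members tested and fell in 2, with a median log2 fold change of 0.75. Besides Nr2f1 and Nr2f2, Irx3, an Iroquois factor of the neural plate, was at 9.64, 9.32 and 9.44 CPM at RA 18 h and at 101, 78.8 and 82.0 CPM at RA 42 h (log2 fold change 3.20, SE 0.10, adjusted p = 6.6e-10). Meis1, a cofactor that binds DNA with Hox proteins, rose from 32.8 ± 2.17 to 105 ± 7.78 CPM (1.68), Zfp503 rose from 9.56 ± 1.36 to 58.7 ± 7.50 CPM (2.62) and Irx5 from 3.70 ± 0.35 to 19.4 ± 2.25 CPM (2.38). Gbx2, which sets the anterior border of the hindbrain, fell from 95.8 ± 2.38 to 30.7 ± 2.93 CPM (-1.64). Gbx2 lies opposite a transcript with a mean of 12.4 CPM. Egr2 (Krox20), which marks rhombomeres 3 and 5, had means of 0.170 and 0.601 CPM with RA and was not tested there. Without RA it was tested and rose. In untreated organoids 14 of 24 members rose and 0 fell.

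Many pluripotency and epiblast genes fell. Of 34 members tested 21 fell and 0 rose, with a median log2 fold change of -1.30, and in untreated organoids 11 fell with a median of -0.72. Pou5f1 (Oct4, chr17:35506018-35510772, plus strand), the core pluripotency factor, was at 291, 317 and 312 CPM at RA 18 h and at 56.4, 79.1 and 75.3 CPM at RA 42 h (log2 fold change -2.12, SE 0.10, adjusted p = 1.7e-08). Without RA it was at 755, 764 and 787 CPM at untreated 18 h and at 600.2, 530.0 and 589.7 CPM at untreated 42 h (log2 fold change -0.39, SE 0.06, adjusted p = 2.7e-04), not called, and the fall with RA was the larger (difference -1.70, SE 0.13, adjusted p = 1.9e-07). Pou3f1 (Oct6), a factor of the late epiblast, fell from 55.9 ± 3.19 to 9.80 ± 2.16 CPM (-2.50), Utf1 from 91.9 ± 14.9 to 26.4 ± 6.57 CPM (-1.79), L1td1 from 453 ± 31.5 to 114 ± 26.2 CPM (-1.98), Nr0b1 from 21.6 ± 3.07 to 4.65 ± 1.27 CPM (-2.20) and the arginine transporter Slc7a3 from 123 ± 9.17 to 35.3 ± 5.70 CPM (-1.80). Nanog, another core factor, was at 137, 149 and 141 CPM at RA 18 h and at 69.5, 98.1 and 102 CPM at RA 42 h and was not called (log2 fold change -0.66, SE 0.11, adjusted p = 4.0e-04). Sox2, which serves both pluripotent and neural cells, went from 286 ± 10.9 to 204 ± 6.93 CPM and Lin28a from 1014 ± 5.93 to 820.2 ± 13.4 CPM, neither called.

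Posterior and mesodermal genes were mixed, with 5 of 21 tested rising and 7 falling, and 4 and 0 without RA. The falls included Cdx1 and Nkx1-2, Cdx2, a relative of Cdx1, from 8.73 ± 1.09 to 1.79 ± 0.332 CPM (-2.28), and Tcf15, a factor of somites and of cells leaving pluripotency, from 29.5 ± 2.82 to 6.17 ± 0.873 CPM (-2.24). All rises were of genes at low levels, among them Fgf8 from 0.185 ± 0.110 to 0.754 ± 0.147 CPM, Hand1 from 0.274 ± 0.178 to 1.33 ± 0.0982 CPM and Wnt3a from 0.821 ± 0.372 to 3.24 ± 0.545 CPM. The call of Fgf8 was lost without RA 18 h replicate 1 or 2 (adjusted p of 0.0123 and 0.0143). T (Brachyury), which defines the primitive streak, had means of 0.467 and 0.812 CPM, and Tbx6, of the presomitic mesoderm, 0.860 and 0.475 CPM.

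The organoids carry the label of neural tube tissue, and markers of neural progenitors were present at both times. Of 29 members tested 19 rose and 1 fell, with a median log2 fold change of 1.48, and the summed level of the list went from 1173 to 1201 CPM at RA 18 h and 2246 to 2552 CPM at RA 42 h. Sox1, the earliest pan-neural factor, was at 29.9, 28.0 and 30.0 CPM at RA 18 h and at 177, 163 and 160.3 CPM at RA 42 h (log2 fold change 2.51, SE 0.06, adjusted p = 1.1e-10). Pax6, a patterning factor of neural progenitors, was at 60.3, 56.5 and 52.8 CPM at RA 18 h and at 170.0, 155 and 149 CPM at RA 42 h (log2 fold change 1.48, SE 0.07, adjusted p = 1.2e-08). Both sets of 3 libraries were well apart. The intermediate filament Nes rose from 82.8 ± 4.37 to 240.2 ± 36.4 CPM (1.54), the growth factor Ptn from 14.3 ± 2.45 to 149.5 ± 9.003 CPM (3.39), and Sox21, a repressor that paces progenitors, from 8.99 ± 1.45 to 74.3 ± 7.43 CPM (3.05). The POU factors Pou3f2 and Pou3f3 (Brn2 and Brn1) rose by 4.24 and 4.17 on the log2 scale, to 13.02 and 12.1 CPM. Fabp7 and Hes5, both of radial progenitors, rose to 6.24 and 6.31 CPM. Over the same interval 17 of 29 members rose without RA, with a median of 1.10.

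Many genes of the dorsal neural tube rose. In the dorsal and roof plate list 12 of 20 members tested rose and 0 fell, with a median log2 fold change of 1.45, against 7 of 15 and a median of 0.61 without RA. Zic1, a zinc finger factor of dorsal progenitors, was at 2.95, 2.35 and 2.74 CPM at RA 18 h and at 28.4, 26.96 and 25.4 CPM at RA 42 h (log2 fold change 3.33, SE 0.11, adjusted p = 1.0e-09). Pax3 was at 1.39, 1.65 and 1.09 CPM at RA 18 h and at 12.4, 11.2 and 9.79 CPM at RA 42 h (log2 fold change 3.01, SE 0.17, adjusted p = 5.5e-08), and its relative Pax7 was at 0.825, 0.825 and 1.57 CPM at RA 18 h and at 7.50, 7.22 and 6.41 CPM at RA 42 h (log2 fold change 2.72, SE 0.22, adjusted p = 9.7e-07). In all 3 genes the 42 h libraries lay several times above those of 18 h. Msx1, a target of BMP signalling, rose from 4.75 ± 0.586 to 12.8 ± 1.02 CPM (1.42), Msx3 from 0.886 ± 0.253 to 5.35 ± 0.888 CPM (2.59), and the roof plate ligand Wnt1 from 0.272 ± 0.183 to 2.27 ± 0.506 CPM (3.04). Wnt1 had 0 counts in all 6 untreated libraries of these times, where 3 counts would have stood for at most 0.135 CPM. Zic4 and Zic1 lie opposite each other and can share reads. Olig3, of the dorsal-most progenitors, was not called with RA (at 12.1, 12.7 and 14.8 CPM at RA 18 h and at 4.29, 8.32 and 10.2 CPM at RA 42 h, log2 fold change -0.77, adjusted p = 0.011) and rose without it, from 5.52 ± 0.927 to 44.7 ± 6.44 CPM (3.07). Without RA 42 h replicate 3 the fall of Olig3 with RA was called, at a log2 fold change of -1.03 (adjusted p = 0.000544). Atoh1, of the rhombic lip, had means of 0.282 and 0.121 CPM.

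Of the floor plate and ventral list, 3 of 15 members tested rose and 0 fell, beside 1 and 0 of 14 without RA, and 8 of its 23 members were too low to test. Foxa2, which defines the floor plate, was at 1.95, 2.84 and 2.00 CPM at RA 18 h and at 10.2, 7.98 and 7.67 CPM at RA 42 h (log2 fold change 1.92, SE 0.18, adjusted p = 3.1e-06). Without RA it stood at 0.677, 0.454 and 0.694 CPM at untreated 18 h and at 0.354, 0.532 and 0.288 CPM at untreated 42 h. Nkx6-1, of ventral progenitors, rose from 0.241 ± 0.0412 to 1.29 ± 0.294 CPM with RA and from 0.100 ± 0.0880 to 1.33 ± 0.342 CPM without. Shh, the floor plate's signal, was at 0.0434, 0.289 and 0.217 CPM at RA 18 h and at 0.326, 0.764 and 0.944 CPM at RA 42 h and was not tested. Olig2, of motor neuron progenitors, was at 0.0868, 0.165 and 0.130 CPM at RA 18 h and at 0.653, 0.115 and 0.354 CPM at RA 42 h, with groups that overlapped. Nkx2-2 had means of 0.0435 and 0.0418 CPM, at or under the limit of detection. Without RA 42 h replicate 3 the list had 5 rises, and with the filter raised to 10 counts in each library it had 1.

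**Figure D4:**
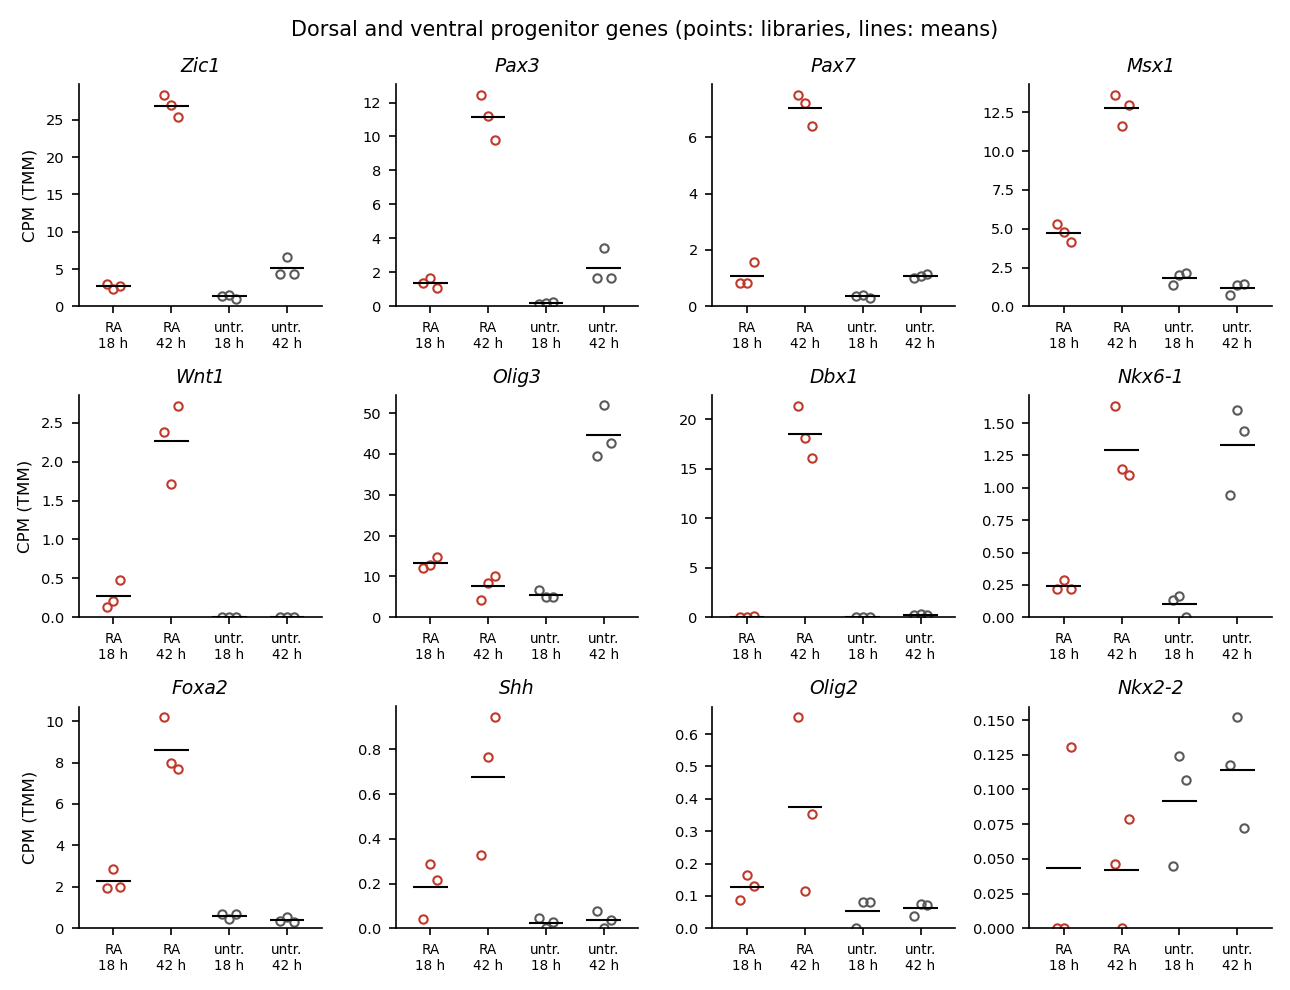
Level of 12 genes of dorsal and ventral progenitors (y axes, CPM after TMM normalization, each panel on its own scale) in the RA (red) and untreated (grey) groups of 18 h and 42 h, with points for libraries and lines for means. Zic1, Pax3, Pax7, Msx1, Wnt1, Dbx1 and Foxa2 are highest in the 3 RA 42 h libraries, Olig3 in the untreated 42 h libraries, and Shh, Olig2 and Nkx2-2 stay below 1 CPM.

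In the Hedgehog pathway coreceptors and transducers rose. The rises were of Boc from 7.34 ± 1.06 to 54.9 ± 5.06 CPM (2.90), Gas1 from 10.4 ± 0.278 to 51.4 ± 4.88 CPM (2.31), the release factors Scube1 from 3.28 ± 0.663 to 20.02 ± 1.62 CPM (2.61) and Scube2 from 0.798 ± 0.0987 to 6.90 ± 2.72 CPM (3.10), Smo from 63.4 ± 3.44 to 150.5 ± 6.54 CPM (1.25) and the repressor Gli3 from 67.3 ± 2.17 to 144 ± 12 CPM (1.10). The direct targets Gli1 and Ptch1 were not called, at 51.3 and 30.9 CPM and at 338 and 254 CPM, while Hhip, a target and antagonist, fell from 23.6 ± 2.29 to 8.33 ± 0.724 CPM (-1.504). Together 6 of 15 members rose and 2 fell, and without RA 4 of 15 rose and 3 fell. Without RA 18 h replicate 2 or 3 the count of falls was 1.

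Several genes of mature neurons fell. Of 33 genes of postmitotic neurons tested 2 rose and 8 fell with RA, with a median log2 fold change of -0.50, whereas 4 rose and 0 fell without RA. The rises made up 6.06% of the members, beside 6.07% of all genes tested, and the falls 24.2%, beside 8.07%. Chrna3, a nicotinic receptor subunit of visceral neurons, rose from 3.08 ± 0.725 to 8.57 ± 1.25 CPM (1.48). Lhx1, of interneurons, was at 15.8, 14.2 and 14.8 CPM at RA 18 h and at 4.33, 4.77 and 3.11 CPM at RA 42 h (log2 fold change -1.88, SE 0.14, adjusted p = 5.6e-07). Gap43, of growing axons, fell from 27.1 ± 2.34 to 8.94 ± 0.804 CPM (-1.59) and Isl1, of motor neurons, from 1.40 ± 0.356 to 0.516 ± 0.0820 CPM (-1.42), a call lost without RA 18 h replicate 3 (adjusted p of 0.0154). Tubb3, Elavl3 and Stmn2, which most neurons share, were not called, with log2 fold changes of -0.50, -0.97 and -0.41. The call of Chat, an enzyme of cholinergic neurons, was lost in DESeq2 and under most other alternatives.

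In the list of neurogenesis and Notch genes 5 of 33 members tested rose (15.2%) and 4 fell (12.1%). Over all genes tested the shares were 6.07% and 8.07%, and without RA 0 of 30 members rose and 4 fell. The proneural factor Neurog2 rose from 0.0434, 0.124 and 0.130 CPM at RA 18 h, no more than 3 counts in a library, to 1.35, 1.03 and 0.708 CPM at RA 42 h. The Notch target Hey1 rose from 1.604 ± 0.183 to 4.98 ± 0.427 CPM (1.63), and Notch3 and Nrarp rose by 1.11 and 1.29 on the log2 scale. Ebf1, a factor of new neurons, was at 7.99, 9.32 and 8.39 CPM at RA 18 h and at 1.26, 0.344 and 0.669 CPM at RA 42 h (log2 fold change -3.54, SE 0.27, adjusted p = 6.2e-07), and all its libraries of 42 h lay below those of 18 h. Neurod1 fell from 8.41 ± 1.51 to 1.74 ± 0.201 CPM (-2.27), and Srrm4, a splicing factor of neurons, from 13.9 ± 1.24 to 3.24 ± 0.389 CPM (-2.10). The ligand gene Dll1 was not called, at 55.1 and 31.3 CPM.

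Among signalling genes, several FGF targets fell and the Id genes of the BMP pathway rose. In the FGF list 4 of 31 members rose and 8 fell, 12.9% and 25.8% beside 6.07% and 8.07% of all genes tested. Spry4, a feedback inhibitor induced by ERK, was at 64.4, 78.4 and 74.9 CPM at RA 18 h and at 8.996, 17.5 and 15.8 CPM at RA 42 h (log2 fold change -2.34, SE 0.17, adjusted p = 4.1e-07). Etv4, a transcription factor downstream of FGF, was at 51.0, 55.4 and 55.7 CPM at RA 18 h and at 11.7, 17.2 and 11.8 CPM at RA 42 h (log2 fold change -1.99, SE 0.12, adjusted p = 1.1e-07). The 3 libraries of each time were far apart for both genes, while another feedback gene, Dusp6, was not called (from 92.3 ± 0.813 to 65.1 ± 9.57 CPM, log2 fold change -0.50). The ligand genes Fgf4 and Fgf5 fell from 43.3 ± 5.87 to 15.04 ± 4.29 CPM and from 3.33 ± 0.517 to 0.959 ± 0.394 CPM, and Fgf15, Fgf3 and the receptor Fgfr3 rose from 6.77 ± 0.937 to 18.5 ± 2.86 CPM, from 1.25 ± 0.132 to 4.86 ± 0.976 CPM and from 6.65 ± 0.460 to 24.3 ± 5.90 CPM. In untreated organoids 5 of 31 members rose and 0 fell.

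In the BMP and TGF-beta list 9 of 22 members rose and 1 fell, with a median log2 fold change of 0.82, and without RA 4 of 19 rose and 1 fell. Id3, a direct BMP target that blocks differentiation, was at 14.4, 18.7 and 20.7 CPM at RA 18 h and at 93.7, 86.7 and 77.5 CPM at RA 42 h (log2 fold change 2.26, SE 0.11, adjusted p = 1.5e-08). Its untreated levels went from 16.9 ± 2.02 to 14.8 ± 1.07 CPM, and the difference between the intervals was called (difference 2.45, SE 0.16, adjusted p = 4.1e-08). Id1 rose from 10.97 ± 1.29 to 28.5 ± 2.18 CPM (1.38) and Id2 from 16.9 ± 1.07 to 48.9 ± 4.43 CPM (1.54), as did the ligands Bmp7 from 8.42 ± 1.10 to 30.4 ± 1.63 CPM (1.85) and Tgfb2 from 0.724 ± 0.109 to 4.42 ± 1.20 CPM (2.61). Bmp4 was not called, at 6.66 and 8.02 CPM. The one fall was of Inhbb, an activin subunit, from 20.2 ± 2.86 to 3.66 ± 0.922 CPM (-2.44).

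Wnt genes rose in 11 of 27 members tested and fell in 1, and without RA 8 of 26 rose and 1 fell. Wls, which carries Wnt ligands to the surface, rose from 43.3 ± 3.05 to 173 ± 7.55 CPM (2.00), the receptor Fzd3 from 64.5 ± 13.9 to 241 ± 46.7 CPM (1.90), and the secreted antagonists Sfrp1 from 37.5 ± 1.54 to 97.9 ± 6.21 CPM (1.38) and Sfrp2 from 16.7 ± 1.17 to 81.1 ± 1.75 CPM (2.28). Axin2, the standard readout of the pathway, was not called (from 21.9 ± 1.41 to 35.8 ± 3.78 CPM), and Lef1, its nuclear effector, fell from 35.0 ± 3.80 to 13.5 ± 4.83 CPM (-1.35). In the list of Hippo, LPA and actomyosin genes 6 of 26 rose and 0 fell, beside 3 and 0 of 26 without RA. Enpp2 (autotaxin), the enzyme that makes the lipid signal LPA, was at 0.825, 0.618 and 0.304 CPM at RA 18 h and at 0.606, 0.955 and 0.708 CPM at RA 42 h and did not pass the test (log2 fold change 0.39, SE 0.39, adjusted p = 0.42). Its untreated levels were far higher, at 25.9, 26.2 and 29.4 CPM at 18 h and 15.3, 17.6 and 16.8 CPM at 42 h. The myosin gene Myh10 rose from 290.4 ± 23.2 to 638 ± 90.3 CPM (1.14), the YAP target Ccn1 from 5.38 ± 0.408 to 19.5 ± 0.290 CPM (1.86), and the LPA receptor Lpar2 from 26.0 ± 0.885 to 54.5 ± 3.21 CPM (1.07).

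The classical cadherins of epithelium and neural tube moved in opposite directions. Cdh1 (E-cadherin), of epithelia and pluripotent cells, was at 355, 441 and 417 CPM at RA 18 h and at 164, 192 and 163 CPM at RA 42 h (log2 fold change -1.22, SE 0.08, adjusted p = 2.1e-07). Cdh2 (N-cadherin), of the neural tube, was at 21.2, 19.5 and 20.5 CPM at RA 18 h and at 179.9, 163 and 137 CPM at RA 42 h (log2 fold change 2.97, SE 0.09, adjusted p = 8.0e-10). At 18 h Cdh1 had 88.4 CPM per kilobase of exon and Cdh2 2.53, and at 42 h 37.8 and 19.8, a scale on which the genes can be compared. Epcam fell from 201 ± 11.8 to 73.1 ± 7.29 CPM (-1.45), and Crb2, an apical polarity gene, rose from 9.63 ± 0.0904 to 61.0 ± 8.13 CPM (2.66), although it lies opposite Dennd1a with a mean of 20.02 CPM. Of 34 junction and apical genes 6 rose (17.6%) and 2 fell (5.88%), beside 6 and 1 of 31 without RA. The shares over all genes tested were 6.07% and 8.07%. The tight junction gene Tjp1 was not called, at 328 and 311 CPM.

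Among genes of the matrix, with several of the basement membrane, 8 of 31 members rose and 1 fell, and without RA 7 of 30 rose and 0 fell. Lama1, a chain of basement membrane laminin, was at 14.5, 14.3 and 15.7 CPM at RA 18 h and at 116, 104 and 75.2 CPM at RA 42 h (log2 fold change 2.73, SE 0.14, adjusted p = 2.3e-08). Col4a1 and Col4a2, the collagen IV chains, rose from 25.1 ± 2.39 to 127 ± 15.6 CPM (2.34) and from 10.1 ± 1.39 to 71.9 ± 12.8 CPM (2.84), and the genes lie head to head on opposite strands. The integrin Itgb8 rose from 1.69 ± 0.986 to 20.1 ± 2.37 CPM (3.58). Fn1 and Lamc1 were not called, with log2 fold changes of -0.37 and -0.14, and Col9a1 fell from 5.70 ± 0.801 to 0.764 ± 0.122 CPM (-2.89). Among guidance cues and receptors 16 of 39 rose and 4 fell, beside 12 and 1 of 37 without RA. The chemokine Cxcl12 and its receptor Cxcr4 moved in opposite directions, with Cxcl12 at 42.9, 45.6 and 43.6 CPM at RA 18 h and at 4.19, 8.25 and 7.12 CPM at RA 42 h (log2 fold change -2.73, SE 0.15, adjusted p = 6.0e-08). Cxcr4 was at 0.738, 0.989 and 0.913 CPM at RA 18 h and at 16.8, 12.8 and 10.9 CPM at RA 42 h (log2 fold change 3.92, SE 0.21, adjusted p = 3.6e-08). The cue and receptor genes Slit1 from 3.86 ± 0.744 to 21.9 ± 2.27 CPM (2.51), Robo2 from 3.18 ± 0.779 to 21.7 ± 0.968 CPM (2.77) and Efna5 from 3.64 ± 0.330 to 23.9 ± 3.31 CPM (2.71) rose.

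Imprinted genes rose in 8 of 27 members tested and fell in 0, with a median log2 fold change of 0.77. The rises were 29.6% of the members, beside 6.07% of all genes tested. Without RA 7 of 26 rose and 0 fell, and Igf2, Plagl1, Peg12 and Nnat rose in both intervals. H19, a noncoding RNA of the growth-controlling Igf2 locus, was at 60.6, 58.3 and 58.8 CPM at RA 18 h and at 365, 294 and 317 CPM at RA 42 h (log2 fold change 2.46, SE 0.07, adjusted p = 6.0e-10). Igf2 was at 3.99, 4.78 and 5.61 CPM at RA 18 h and at 27.8, 23.4 and 22.0 CPM at RA 42 h (log2 fold change 2.35, SE 0.13, adjusted p = 4.1e-08). Both sets of libraries were apart, and in untreated organoids H19 stood at 14.1, 17.2 and 14.4 CPM at 42 h. At RA 30 h H19 was at 5.12, 218 and 5.56 CPM, with 1 library far above the others, which lay below those of RA 18 h. Without RA it was at 10.1, 9.28 and 8.00 CPM at 18 h and at 0.752, 1.10 and 0.919 CPM at 30 h. The low level at 30 h was thus seen in untreated libraries too, and its cause was not tested. Plagl1, a regulator of imprinted genes, rose from 7.37 ± 0.342 to 39.9 ± 3.13 CPM (2.44) and Peg12 from 7.81 ± 0.281 to 46.6 ± 4.49 CPM (2.58), while Meg3, Peg3 and Grb10 were not called. Without RA 18 h replicate 3 or RA 42 h replicate 3 the list had 1 fall.

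Lists of metabolism and of the cell cycle were read against the shares over all genes, 6.07% higher and 8.07% lower. None of 31 genes of cholesterol and fatty acid synthesis was called by edgeR, and their median log2 fold change was -0.15. With DESeq2 the count was 0 higher and 0 lower, and 22 of the members had an unadjusted p under 0.05 in edgeR. In glycolysis and hypoxia 1 of 30 rose and 2 fell (3.33% and 6.67%), and the falls of Pdk1 and Pfkp were not called without RA 42 h replicate 1 (log2 fold changes of -0.85 and -0.84). Among 36 cell cycle genes 5 rose (13.9%) and 0 fell. Without RA 1 gene of glycolysis and hypoxia and 1 of the cell cycle rose, and 0 members of the 3 lists fell. Ccnd2, the cyclin of neural progenitors, was at 166, 186 and 177 CPM at RA 18 h and at 837, 836 and 777 CPM at RA 42 h (log2 fold change 2.21, SE 0.05, adjusted p = 1.1e-10), and Myc rose from 12.4 ± 1.59 to 35.0 ± 3.80 CPM (1.49). Mki67, a marker of cycling cells, was not called, at 537 and 539 CPM. The rises of Cdk6, Mycl and Cdkn1a were close to the limit on fold change, and without RA 42 h replicate 1 the list had 3 rises.

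Among genes of p53 and cell death, 2 of 24 rose (8.33%) and 5 fell (20.8%), beside 1 and 0 without RA. Over all genes tested 6.07% rose and 8.07% fell. Of the falls in the list, 4, those of Atf3, Chac1, Trib3 and Ddit3 (CHOP), were of genes known as targets of the stress factor ATF4. Atf3 was at 43.2, 41.8 and 44.7 CPM at RA 18 h and at 14.9, 14.6 and 14.4 CPM at RA 42 h (log2 fold change -1.56, SE 0.06, adjusted p = 5.7e-09). Chac1, which degrades glutathione, was at 21.4, 23.2 and 26.0 CPM at RA 18 h and at 7.46, 8.97 and 7.87 CPM at RA 42 h (log2 fold change -1.53, SE 0.10, adjusted p = 2.0e-07). Trib3, a pseudokinase, was at 26.0, 29.6 and 32.1 CPM at RA 18 h and at 8.95, 11.3 and 11.3 CPM at RA 42 h (log2 fold change -1.46, SE 0.11, adjusted p = 4.2e-07). In all 3 genes the libraries of 42 h lay below those of 18 h. Ddit3 fell from 17.2 ± 1.62 to 7.66 ± 0.113 CPM (-1.16) but overlaps Mars, a gene of 224 CPM, on the opposite strand. The p53 targets Mdm2 and Ccng1 were not called, with log2 fold changes of 0.08 and 0.65. In untreated organoids Atf3 rose from 3.31 ± 0.572 to 7.08 ± 1.58 CPM (1.14), and Chac1 and Trib3 were not called.

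The 250 bases before the start of Atf3 and Chac1 are shown because ATF4 is known to bind elements of the kind TGATGAAA and TGATGCAA, and these genes fell together. Capitals mark either element, searched on both strands, and the windows are from RefSeq (GRCm38.p6) in the gene's own direction, at chr1:191183334-191183583, minus strand for Atf3 and at chr2:119350992-119351241, plus strand for Chac1.
Atf3: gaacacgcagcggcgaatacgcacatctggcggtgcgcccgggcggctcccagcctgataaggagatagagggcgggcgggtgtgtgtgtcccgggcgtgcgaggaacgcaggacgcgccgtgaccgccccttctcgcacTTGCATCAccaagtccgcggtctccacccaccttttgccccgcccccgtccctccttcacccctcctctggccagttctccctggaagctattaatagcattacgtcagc
Chac1: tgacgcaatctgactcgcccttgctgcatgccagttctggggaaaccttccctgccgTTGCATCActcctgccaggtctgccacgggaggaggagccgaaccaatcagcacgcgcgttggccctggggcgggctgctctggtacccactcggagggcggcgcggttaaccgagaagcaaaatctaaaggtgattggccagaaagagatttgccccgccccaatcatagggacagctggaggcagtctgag
In both the element is TGATGCAA on the opposite strand, counted from the start from -110 to -103 in Atf3 and from -193 to -186 in Chac1. One of the elements was found in 547 of 32851 windows (1.67%) and in 138 of 11812 genes tested (1.17%), among them 18 of 889 genes that fell (2.02%) and 4 of 691 that rose. The windows of Trib3 and Ddit3 held none. These elements too were chosen after the changes were known.

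Markers of other cell types stood low or had calls in both directions, and the neural crest list had 2 rises only. In the endoderm list 2 of 15 members tested rose and 3 fell, Sox17 had means of 8.41 and 7.55 CPM, and Afp and Ttr were at or under the limit of detection at 18 h. In the neural crest list 2 of 16 rose and 0 fell, and Sox10 went from 1.53 ± 0.698 to 0.752 ± 0.00992 CPM without a call. In the endothelium and blood list 1 of 10 rose and 3 fell, and the vascular cadherin Cdh5 had means of 0.142 and 0.306 CPM. The forebrain and midbrain list had 4 rises and 1 fall among 14 tested, with Six3 at 0.174 and Rax at 0.138 CPM on average at RA 42 h. In untreated organoids the rises and falls were 1 and 2 in the endoderm list, 2 and 3 in the neural crest list, 1 and 4 in the endothelium and blood list, and 2 and 1 in the forebrain and midbrain list. Without RA 18 h replicate 1 or 2 that last list had 2 rises, and the fall of Pax5 was lost without RA 18 h replicate 1 or RA 42 h replicate 2.

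Simple epithelial keratins were an exception. Krt8 was at 21.2, 23.0 and 21.8 CPM at RA 18 h and at 66.8, 65.9 and 58.0 CPM at RA 42 h (log2 fold change 1.53, SE 0.07, adjusted p = 1.1e-08). Krt18, its partner, was at 16.3, 17.2 and 15.7 CPM at RA 18 h and at 60.6, 58.6 and 50.3 CPM at RA 42 h (log2 fold change 1.78, SE 0.08, adjusted p = 1.0e-08), and Krt19 rose from 4.61 ± 0.789 to 21.7 ± 2.74 CPM (2.24). All 3 libraries of 42 h lay above those of 18 h for both named partners. In the list of surface ectoderm, trophoblast and keratin genes 8 of 21 rose and 7 fell, beside 0 and 2 of 18 without RA, the falls including Epcam, Cdh1, Grhl2, Grhl3 and Esrp1, and Trp63, of the epidermis, had means of 0.0717 and 0.401 CPM. The summed level of the list went from 926 to 1089 CPM at RA 18 h and 597 to 655 CPM at RA 42 h.

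The 4 genes of the Y chromosome were lower at 42 h than at 18 h with and without RA. Their mean level was 51.1 to 59.5 CPM at RA 18 h and 23.9 to 31.8 CPM at RA 42 h, and 50.3 to 59.0 and 25.0 to 34.4 CPM in the untreated libraries. Ddx3y fell from 84.5 ± 7.14 to 38.4 ± 6.37 CPM (-1.14) and Uty from 50.7 ± 5.32 to 24.6 ± 5.67 CPM (-1.04), and both calls were lost in 1 fit of all 45 libraries (adjusted p of 0.118 and 0.143). Time and this shift cannot be told apart here, and the part of the shift in the other results was not tested.

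**Figure D5:**
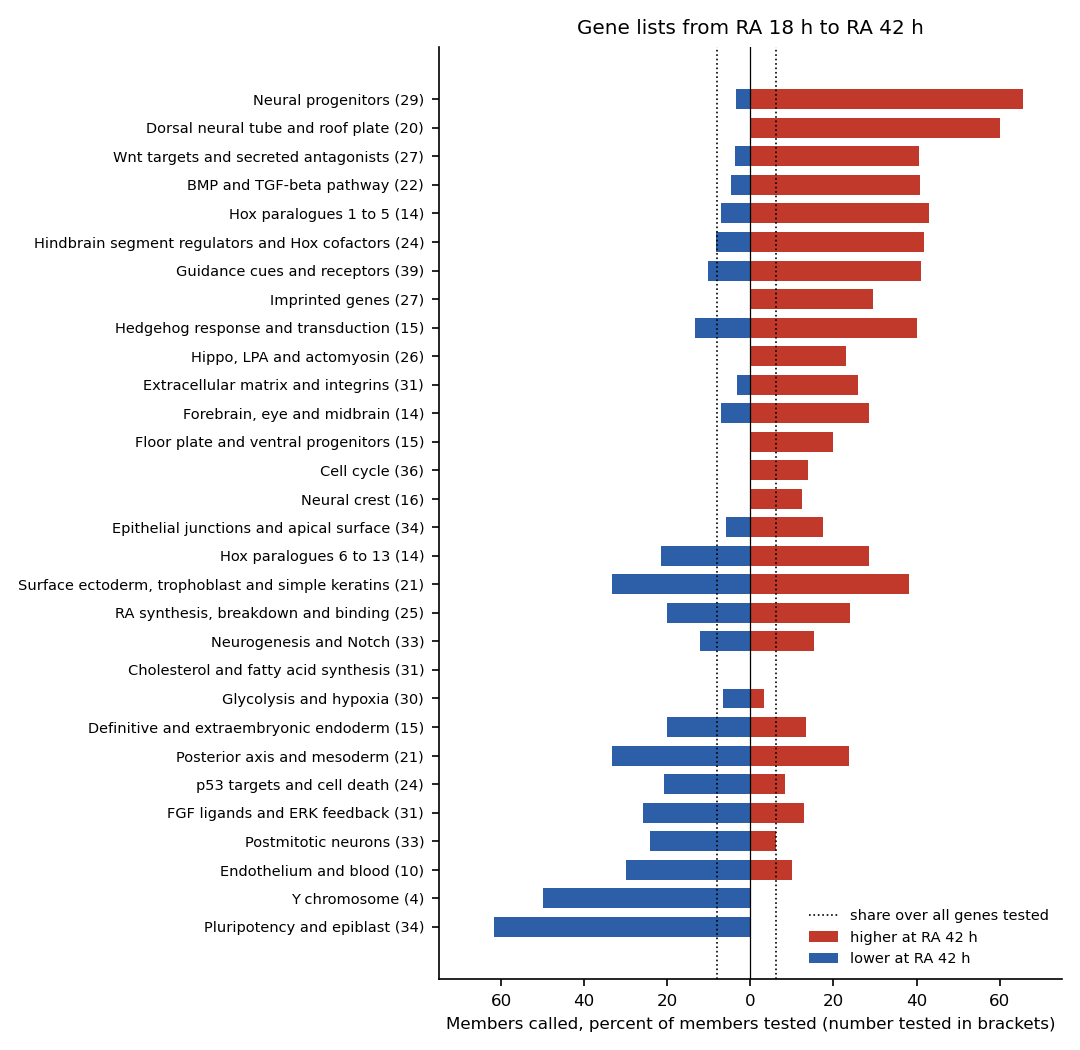
Percent of the tested members of each gene list that were called higher (red, to the right) or lower (blue, to the left) at RA 42 h than at RA 18 h, with the number tested in brackets. Dotted lines mark 6.07% and 8.07%, the shares over all genes tested; neural progenitor and dorsal genes lie at the top and pluripotency genes at the bottom.

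The interval with RA was last set against the same interval without RA. Of the genes that rose with RA, 189 had a higher change than without RA and 11 a lower one, and of those that fell 345 had a lower change and 0 a higher one. Over all genes tested 1.53% had a higher change and 3.6% a lower one. The same RA libraries entered both tests, so genes called for a change with RA lean towards a difference of that sign. The direction of these counts is therefore not independent evidence. Among genes with a mean of at least 5 CPM over the 12 libraries, Nkx1-2 (difference -4.89, SE 0.20, adjusted p = 2.8e-10), Cyp26b1 (difference -4.89, SE 0.31, adjusted p = 3.4e-08) and Hoxb1 (difference -4.29, SE 0.14, adjusted p = 7.4e-11) had the most negative differences. Col12a1 (difference 4.99, SE 0.43, adjusted p = 7.1e-07), Ednrb (difference 3.21, SE 0.45, adjusted p = 8.8e-05) and Nsg2, a gene of neuronal vesicles (difference 3.11, SE 0.20, adjusted p = 3.3e-08), had the most positive. Nsg2 was at 2.21, 2.31 and 2.22 CPM at RA 18 h and at 28.9, 26.9 and 29.5 CPM at RA 42 h, against 5.07, 6.31 and 4.62 CPM at untreated 42 h. Col12a1 went from 0.467 ± 0.135 to 0.389 ± 0.0714 CPM without RA and was not called. The transcription cofactor gene Lbh and the ganglioside synthase gene St8sia1 rose with RA, from 2.34 ± 0.127 to 15.6 ± 0.335 CPM and from 5.76 ± 1.29 to 34.2 ± 4.31 CPM, and were not called without it, from 9.73 ± 0.618 to 9.68 ± 0.624 CPM and from 5.13 ± 0.292 to 4.37 ± 0.582 CPM.

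Libraries of other times in the series give the levels around the interval. At RA 30 h Cyp26a1 was at 17.8, 55.8 and 17.9 CPM in replicates 1, 2 and 3, with 2 libraries below those of 42 h. Replicates 2 and 3 of RA 30 h have library numbers of another series than the 18 h and 42 h libraries. They also differed from each other, so these levels do not settle the course within the interval. At RA 54 h Ednrb stood at 132 ± 31.2 CPM, Nr2f1 at 77.2 ± 17.7 CPM and Crabp1 at 331 ± 34.7 CPM, all above their means at 42 h. Cyp26a1 went on to 8.55 ± 1.04 CPM, Cdx1 to 1.80 ± 0.525 CPM and Hoxb1 to 23.1 ± 7.86 CPM. Pou5f1 was at 44.7 ± 14.7 CPM at RA 54 h but at 91.7 ± 7.59 CPM at 66 h and 94.7 ± 29.4 CPM at 78 h, the last 2 means above that of 42 h. All RA libraries of 66 h and 78 h have library numbers of another series, so time and library series cannot be told apart there. The lowest RA 78 h library, at 63.3 CPM, lay within the range of the RA 42 h libraries. These are descriptions of levels, with no test of the other times.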

How the data were processed

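Poly(A) RNA libraries were made with a directional kit. Per the labels and the methods of the study, the authors aligned reads with STAR and counted them with featureCounts (Subread 1.6.2), and the deposited table holds raw counts per gene for 45 libraries. The strand and multi-mapping settings are not given in the sources used here, so reads of overlapping or near-identical genes may be split. All 45 columns were matched to samples by their titles. GENCODE M21 (GRCm38) gave a position for 54495 of the 54532 genes listed. Promoter windows came from RefSeq.

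Levels are CPM with TMM factors over the 45 libraries, and 3 counts were the limit of detection. Each interval was fitted on its own 6 libraries, and the difference between intervals on 12, with edgeR 4.0.16 in R 4.3.3 (filterByExpr with a minimum count of 10 and a minimum total of 15, TMM, quasi-likelihood F-test, Benjamini-Hochberg adjustment). The fits were tested on simulated data. DESeq2 1.42.0, other normalizations, filters, thresholds and fits, a replicate block and leaving out each library were the alternatives. Replicates differed by more than counting noise, and p-values measure the spread between these libraries only.

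The comparison, its members and the 30 gene lists were chosen with earlier results of these data known, so a list's counts are not independent evidence. The genes named were the 10 largest rises and the 10 largest falls with RA among called genes with a mean of at least 5 CPM and no overlap between times, in each list its key members and up to 6 called members with the largest change, the 8 largest differences from the untreated interval in each direction, and any member behind a count of 5 or fewer. Some genes that meet this rule are not reported here, although the counts include them.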

Additional observations from a re-analysis of the deposited data

Results flagged for a closer look

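Over the 12 libraries of both intervals, 268 genes had a higher and 629 a lower change from 18 h to 42 h with RA than without it, by edgeR's test of the difference itself. The differences below are the log2 fold change with RA minus that without RA, all called in that test, for the key members of the gene lists and for the largest differences. Among genes of the RA response and of the Hox clusters they were -4.89 for Cyp26b1, -3.50 for Cyp26a1, -1.70 for Dhrs3, -4.29 for Hoxb1, -3.57 for Hoxb2, -1.37 for Hoxb8, -1.23 for Hoxb4, -1.22 for Hoxb6 and 2.82 for Hoxc5. Posterior, hindbrain and mesodermal genes had -4.89 for Nkx1-2, -3.49 for Cdx1, -2.58 for Cdx2, -2.28 for Gbx2 and -1.73 for Meis1. Genes of pluripotent cells, FGF signalling and stress had -1.70 for Pou5f1, -1.44 for Fgf5, -1.54 for Spry4, -1.87 for Etv4 and -1.71 for Ddit3. Neural, dorsal and crest genes had -1.47 for Sox1, -3.95 for Ebf1, -3.80 for Olig3, -1.86 for Sox10, -1.24 for Stmn2, 3.21 for Ednrb, 3.64 for Neurog2, 2.08 for Msx1, 2.57 for Foxa2, 2.77 for Pax2 and 3.11 for Nsg2. Ligands, receptors and readouts of signalling had -2.77 for Cxcl12, -1.10 for Hhip, -1.08 for Lef1, -1.01 for Sfrp1, 1.42 for Sfrp2, -1.21 for Lpar4, 1.07 for Lpar1, 1.07 for Bmp4, 1.79 for Id1, 2.45 for Id3, -1.57 for Vegfa and 2.77 for Kdr. Adhesion, matrix and keratin genes had -1.02 for Epcam, 1.30 for Podxl, 1.62 for Cdh2, 1.27 for Krt18, 1.66 for Krt19, 1.45 for Col4a1, 2.31 for Lama1 and 4.99 for Col12a1. The other differences were -4.02 for Btla, -3.74 for Il33, 1.23 for Peg3, 1.28 for Mycn, 1.67 for Myc, 1.70 for H19, 2.57 for Limch1, 2.74 for Lbh, 2.80 for St8sia1 and 3.06 for Cyp1b1. In 1 fit of all 45 libraries the differences of Hoxb4, Hoxb6, Hoxb8, Fgf5, Foxa2, Hhip, Neurog2, Sox10, Krt18, Krt19, Lef1, Podxl and H19 were no longer called. With library totals in place of TMM the difference of Lpar1 was 0.997 and that of Bmp4 0.989, under the limit on fold change, and that of Neurog2 had an adjusted p of 0.0118. Sox10 was not called by DESeq2, and Sox10, Neurog2 and Hoxb6 were not called with the replicate block. Tested against a log2 fold change of 1, 28 of the differences were not called. Leaving out 1 library ended the call for 10 of these genes. For Bmp4 the difference without untreated 18 h replicate 1 or untreated 42 h replicate 1 was 0.96 to 0.97. For Epcam the difference without RA 18 h replicate 2 or RA 42 h replicate 1 or untreated 18 h replicate 2 or untreated 42 h replicate 3 was -0.98 to -0.93. For Hhip the difference without untreated 18 h replicate 3 or untreated 42 h replicate 2 was -0.98 to -0.96. For Hoxb4 the difference without untreated 18 h replicate 3 was -0.9999, just inside the limit on fold change. For Hoxb6 the difference without RA 18 h replicate 2 or 3 or untreated 18 h replicate 1, 2 or 3 or untreated 42 h replicate 1 or 2 was -1.33 to -1.06. For Hoxc5 the difference without untreated 18 h replicate 2 or untreated 42 h replicate 2 was 1.87 to 2.52. For Lef1 the difference without RA 42 h replicate 1 or untreated 18 h replicate 2 or untreated 42 h replicate 3 was -0.995 to -0.84. For Neurog2 the difference without RA 18 h replicate 1, 2 or 3 or RA 42 h replicate 1 or 2 or untreated 18 h replicate 2 or 3 or untreated 42 h replicate 1 or 2 was 3.18 to 3.86. For Sfrp1 the difference without RA 18 h replicate 2 or 3 or RA 42 h replicate 3 or untreated 18 h replicate 2 or untreated 42 h replicate 2 was -0.999 to -0.82. For Sox10 the difference without RA 18 h replicate 2 or 3 or RA 42 h replicate 1, 2 or 3 or untreated 18 h replicate 1, 2 or 3 or untreated 42 h replicate 1, 2 or 3 was -1.94 to -1.45. No sample group had more than 3 libraries, so single libraries were not tested against the rest of their group.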

How the results depend on the processing

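Counts of higher and lower genes are given in the order RA interval, untreated interval, and difference of the intervals. They were 1009 and 1342, 803 and 646, 268 and 629 as reported, 4675 and 4611, 3918 and 3396, 2518 and 2280 at an adjusted p under 0.05 with no minimum fold, and 451 and 456, 197 and 100, 47 and 122 when edgeR's glmTreat tested against a log2 fold change of 1. Every other alternative run moved these counts by less than 1.5 times: RLE size factors, library totals, DESeq2 (1003 and 1219, 745 and 615, 274 and 642), no filter, at least 10 counts in every library, one fit of the 12 libraries (already the fit of the difference) or of all 45, and each library left out. Leaving out 1 library gave 966 to 1074 higher and 1154 to 1402 lower genes for RA, 663 to 811 and 490 to 659 for untreated, and 226 to 277 and 526 to 624 for the difference. With the replicate number as a block they were 961 and 1212, 742 and 577, 245 and 556. For libraries of equal number the deviations from the group means had correlations of mixed sign. They were -0.19, 0.12 and -0.19 with RA and -0.26, -0.14 and 0.23 without it. With 3 libraries per group these values cannot settle whether equal numbers pair the samples. Library totals in place of TMM moved the median of all genes in the difference from -0.01 to -0.08. Of the genes named, Mki67 turned to -0.00193 with library totals, and the sign of some uncalled genes depended on 1 library, with ranges of -0.57 to 0.21 for Epha5, -0.0786 to 0.0617 for Mki67, -0.26 to 0.54 for Neurod4, -0.17 to 0.24 for Neurog1, -0.13 to 0.0599 for Slc2a3, -0.51 to 0.0353 for Tal1. Among named genes called in the RA interval or in the difference, 0 changed sign under the alternatives run. With 3 libraries per group the spread covers these samples only, and genes under about 1 CPM rest on few counts. The cause of the changes with the settings was not tested.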
